A study of Mus musculus with 6 samples.

Results

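Genes that cut, protect and cross-link the extracellular matrix were followed in differentiating mouse ESCs with and without induced Snail. The set held 10 genes: the matrix metalloproteinases Mmp2 and Mmp14, the tissue inhibitors of metalloproteinases Timp1, Timp2 and Timp3, the lysyl oxidases Lox and Loxl2, the plasminogen activators Plat and Plau, and the urokinase receptor gene Plaur. Its members were all probe sets of the Affymetrix mouse expression array that carried one of these symbols and no other symbol. A probe set is a group of short oligonucleotides that is read as 1 intensity. Of 45037 probe sets, 24 met this rule, and they covered 9 of the 10 genes. Loxl2 was listed only on 2 probe sets that also carry Gm21451, so it is not analysed here.

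A2.Snail cells are ESCs of the A2lox line into which a Snail cDNA was placed by Cre recombination, so that doxycycline (dox) switches it on. They had been grown on irradiated fibroblast feeders and passaged once without them before they were differentiated as embryoid bodies in serum with DKK, a secreted inhibitor of Wnt signaling. The 3 DKK cultures received no dox, and the 3 DKK + dox cultures received dox at 250 ng/mL on day 2. RNA was taken 6, 12 and 24 hours after that point, on days 2.25, 2.5 and 3, and each of the 6 conditions was hybridised to 1 array. Every array carried the transgene and DKK, and none held cells without the transgene that had received dox, so an effect of dox itself and one of Snail cannot be told apart.

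MMP14 is anchored in the cell membrane, where it cleaves fibrillar collagens and activates the secreted proenzyme of MMP2, a protease of basement membrane collagen. TIMP proteins block the active site of these proteases, and TIMP2 also takes part in the membrane complex in which MMP14 activates MMP2. The plasminogen activators turn plasminogen into plasmin, a broad protease, and the lysyl oxidases cross-link collagen and elastin after secretion. Such enzymes are known for opening and rebuilding the matrix where an epithelium becomes mesenchymal, as it does during gastrulation.

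The arrays had medians between 53.5 and 63.7. A difference is the log2(intensity + 20.6) of the DKK + dox array less that of the DKK array of the same time, a scale that understates the change of dim genes. The brightest probe set on average stood for its gene, which was tested with limma when at least 1 array exceeded 37.2, called the low-signal limit here. The model took the difference to grow in proportion to the hours after dox, and the test asked whether this trend departed from 0. Whether the growth was in proportion to time was not tested. Each fitted difference is that trend's value at 24 hours with its standard error (SE), and "rose" or "fell" is written only of genes with an adjusted p under 0.05. The fit has 2 residual degrees of freedom from 6 arrays, so its p-values carry no spread between replicate cultures, and a difference between 2 arrays of 1 time stands on those 2 arrays. The probe set of Snai1 was under the low-signal limit on all 6 arrays and does not check the labels. Cdh1, the E-cadherin gene, had log2 differences of -0.37, -1.05 and -1.02 at 6, 12 and 24 hours. All 10 markers of ES cells and epiblast, Pou5f1 and Sox2 among them, were above the limit on all arrays.

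Snail induction was followed by higher Mmp2, Mmp14 and Timp2, while no member passed the test in the other direction. Of the 9 genes measured, 8 were tested: 3 rose, 0 fell, and the 5 others, Timp1, Timp3, Lox, Plat and Plaur, did not pass. Over all 14755 genes tested, 8.32% rose and 6.38% fell. At an unadjusted p under 0.05 from limma, 5 of the 8 were higher, with Timp1 and Plat added, and 0 lower. Of the 14755 genes tested, 4270 were under that p in one direction or the other. Plau stayed under the low-signal limit on all 6 arrays and was not tested. The number of members higher in DKK + dox was 3 of 8 at 6 hours, 7 of 8 at 12 hours and 7 of 8 at 24 hours. The 5 that were lower at 6 hours lay between -0.15 and -0.04, and Timp1, Timp2 and Plaur were at 0.04, 0.01 and 0.03 there once the arrays were centred on the median, so that their sign at that time depends on the scaling. The median difference of the 8 was -0.04 at 6 hours, 0.67 at 12 hours and 0.58 at 24 hours, where the medians of all genes tested were -0.04, 0.03 and 0.02. No member was 2-fold higher or lower at 6 hours, when 0.271% of all genes were higher by that much and 0.468% lower. None was at 12 hours, when the shares of all genes were 1.27% and 2.25%. At 24 hours 2 of the 8, Mmp2 and Mmp14, were at least 2-fold higher, and 0 were lower by that much, beside 3.12% and 2.20% of all genes.

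**Figure D1:**
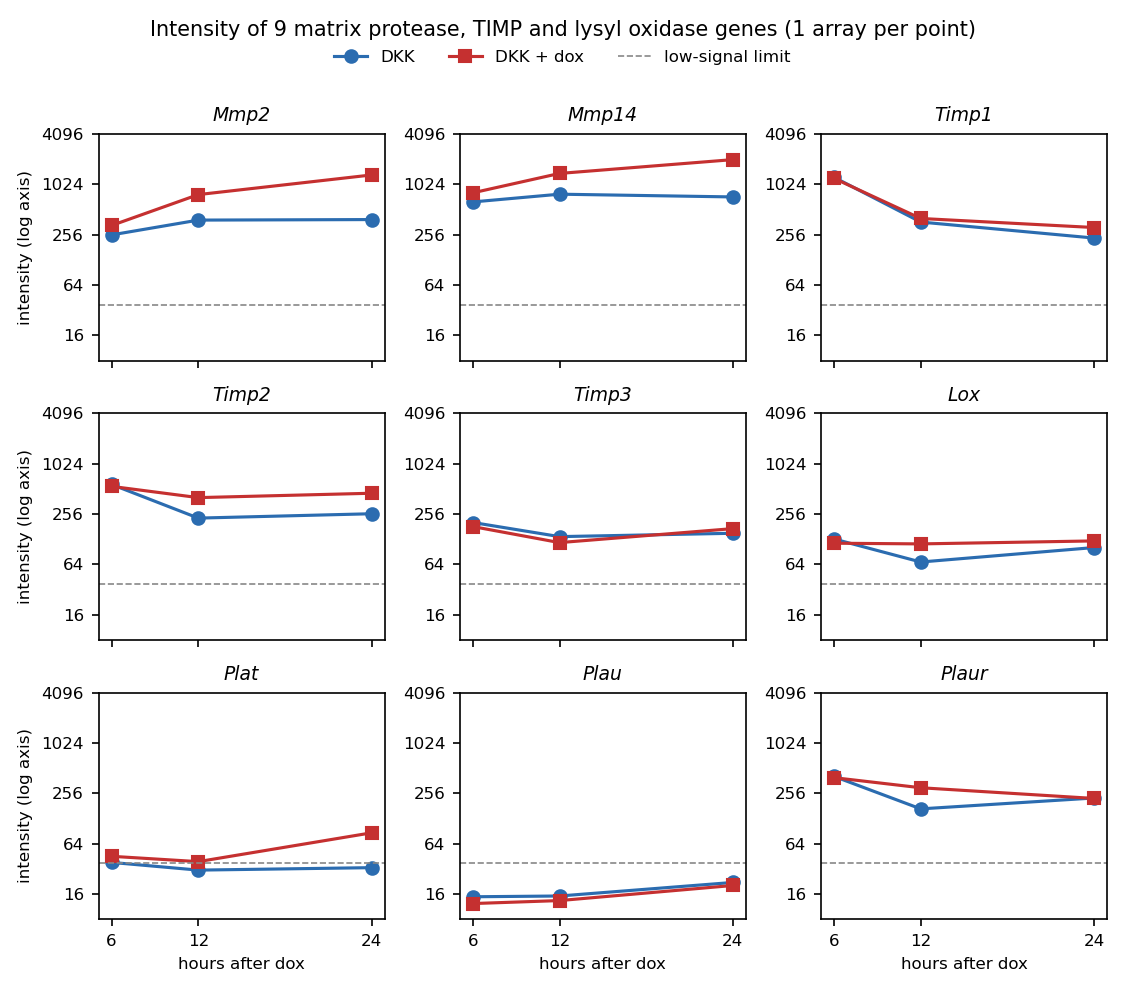
Intensity (log axis) against hours after dox for the 9 genes measured, on the probe set that was brightest on average. Circles are DKK and squares DKK + dox, 1 array per point, and the dashed line is the low-signal limit of 37.2. The lines of Mmp2 and Mmp14 part from 6 hours on, those of Timp1 run down together, and Plau lies under the limit on all 6 arrays. Levels of different panels come from different probes and are not comparable.

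Promoters of 5 of the 10 members were taken from the RefSeq promoter table of GRCm38.p6, which gives 250 bases before and 50 after the start site. Those of the other members, Lox among them, were not read. Those of Mmp14, Timp2 and Timp3 are shown because they set 2 genes that rose beside an inhibitor gene that did not pass. Snail is a zinc finger repressor that binds the E-box CAGGTG, read on both strands as CAGGTG or CACCTG. Capitals mark this E-box and the GC box, GGGCGG or CCGCCC, which is read by Sp factors. Mmp14 lies on the plus strand at chr14:54431348-54431647, Timp2 on the minus strand at chr11:118355362-118355661 and Timp3 on the plus strand at chr10:86300162-86300461.
Mmp14: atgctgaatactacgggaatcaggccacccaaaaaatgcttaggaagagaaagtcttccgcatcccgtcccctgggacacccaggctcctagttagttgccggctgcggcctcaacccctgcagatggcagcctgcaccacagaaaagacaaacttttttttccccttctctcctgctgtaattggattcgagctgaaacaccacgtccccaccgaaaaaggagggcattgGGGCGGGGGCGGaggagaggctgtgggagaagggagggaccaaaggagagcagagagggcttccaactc
Timp2: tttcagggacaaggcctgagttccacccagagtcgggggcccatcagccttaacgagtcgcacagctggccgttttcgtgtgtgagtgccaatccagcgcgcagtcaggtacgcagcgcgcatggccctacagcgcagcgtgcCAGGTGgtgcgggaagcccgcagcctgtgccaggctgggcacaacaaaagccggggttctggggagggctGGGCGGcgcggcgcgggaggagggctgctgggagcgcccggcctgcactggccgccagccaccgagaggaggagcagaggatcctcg
Timp3: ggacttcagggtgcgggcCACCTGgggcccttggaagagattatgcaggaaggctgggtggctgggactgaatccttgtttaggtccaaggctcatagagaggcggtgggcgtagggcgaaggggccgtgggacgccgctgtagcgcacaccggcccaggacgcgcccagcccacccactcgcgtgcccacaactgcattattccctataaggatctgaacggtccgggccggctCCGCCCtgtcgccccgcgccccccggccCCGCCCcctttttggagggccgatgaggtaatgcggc
The Mmp14 promoter held 2 adjacent GC boxes, starting 19 and 13 bases before the start site, and no E-box of these letters. Timp2, which rose, held 1 such E-box starting 107 bases before the start site, and Timp3 held 1 starting 232 bases before it. Among the 32851 promoters of the table, 20.2% held this E-box and 35.7% the GC box. The promoters of Timp1 and Plaur held no E-box of these letters. All 5 promoters held the GC box, with 1 in Timp2, 2 in Timp3, 1 in Timp1 and 3 in Plaur beside those of Mmp14. Plaur alone of the 5 held the AP-1 site TGACTCA (searched also as TGAGTCA), 69 bases before its start site, which 5.20% of all promoters held in either form. A match describes the letters and is not a measured binding site.

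Mmp2, the secreted gelatinase gene, had the largest fitted difference of the 8 members tested. Its intensity was 255, 382 and 388 in DKK at 6, 12 and 24 hours, and 330.1, 772 and 1326 in DKK + dox. The 3 DKK + dox arrays were each above the DKK array of the same time, and the gap widened at each step while the DKK level was nearly the same at 12 and 24 hours. The intensity ratio of DKK + dox to DKK was 1.30, 2.02 and 3.42 at the 3 times, and the log2 differences were 0.35, 0.98 and 1.72. The fitted difference was 1.75 (SE 0.13, adjusted p = 0.000858 from limma). A second probe set of Mmp2 read 142, 187 and 183 in DKK against 179, 382 and 633 in DKK + dox, with a difference of 1.68 at 24 hours, so both probe sets gave the same order of arrays apart from the 12 and 24 hour DKK cultures.

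Mmp14, the membrane-anchored activator of MMP2, was also higher with dox at all 3 times. Its intensity was 631, 781 and 724 in DKK against 811, 1382 and 2022 in DKK + dox. All 3 DKK + dox arrays were higher than every DKK array, including the 6 hour one. The log2 differences were 0.35, 0.81 and 1.46, and the fitted difference was 1.48 (SE 0.10, adjusted p = 0.000858 from limma). The intensity ratio reached 2.79 at 24 hours. Of 16 fits, Mmp2 and Mmp14 missed the threshold in the one that holds the difference constant over the 3 times (adjusted p = 0.0941 and 0.0880 from limma).

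A dimmer Mmp14 probe set, 1416572_at, read 130.1, 140.1 and 161 in DKK against 167, 309 and 562 in DKK + dox. The dimmest, 1440920_at, read 94.7, 59.8 and 59.7 in DKK against 94.8, 111 and 137 in DKK + dox. The first had differences of 0.31, 1.04 and 1.68, while the dimmest had 0.0015, 0.71 and 0.97. With every probe set fitted as its own feature, all 3 of Mmp14 and both of Mmp2 rose, at fitted differences between 1.01 and 1.75. In that fit 6.81% of 26362 probe sets rose and 5.12% fell. Of the 20 member probe sets tested, 7 rose and 0 fell, the remaining 2 that rose being of Timp2. At an unadjusted p under 0.05 from limma 10 were higher and 1, of Timp3, lower. The share of all probe sets at that p was not counted. The 4 probe sets not tested were 2 of Lox and both of Plau.

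**Figure D2:**
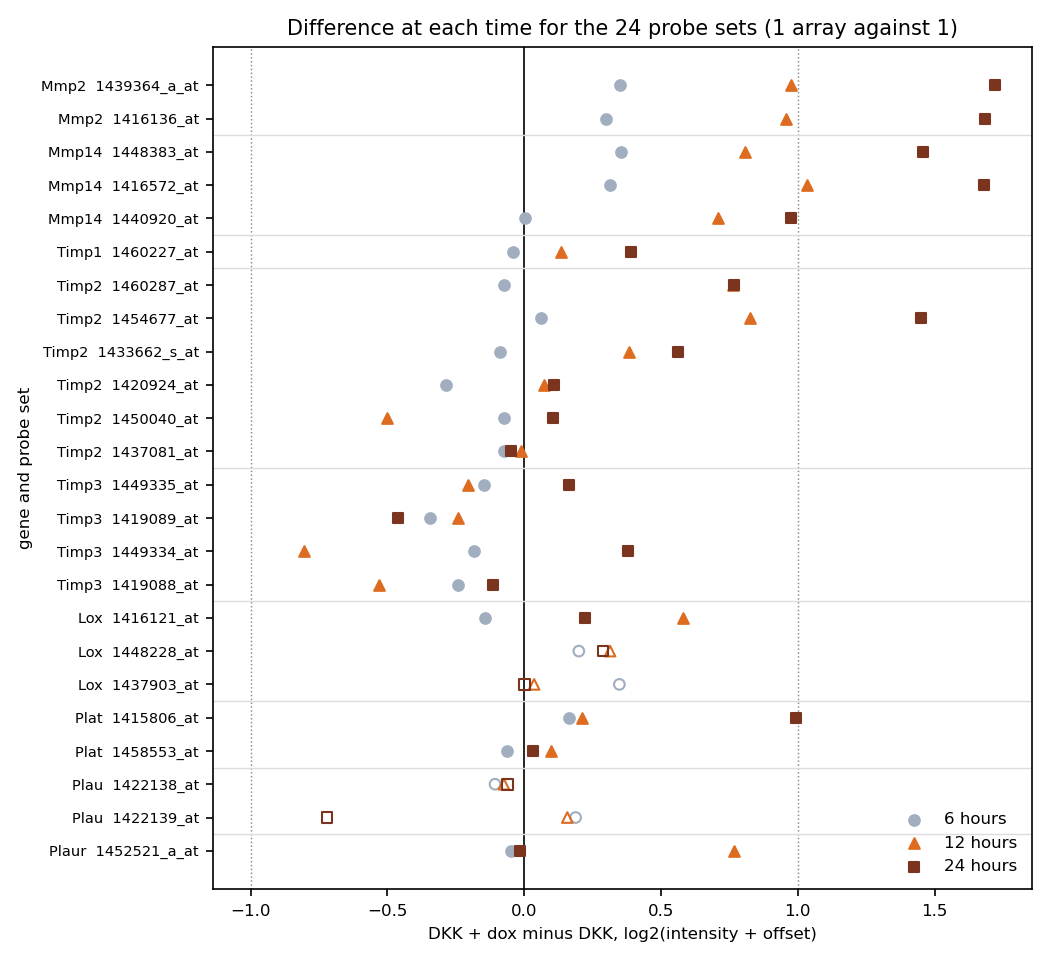
Difference at 6 hours (circles), 12 hours (triangles) and 24 hours (squares) for each of the 24 probe sets, as DKK + dox minus DKK in log2(intensity + 20.6), 1 array against 1. Open symbols mark the 4 probe sets under the low-signal limit on all arrays, and dotted lines stand at 2-fold. Both Mmp2 and all 3 Mmp14 probe sets step to the right with time, while the 6 of Timp2 spread from -0.05 to 1.45 at 24 hours.

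The inhibitors differed from one another in level over time and in their differences. Timp1, the gene of a secreted inhibitor of many metalloproteinases, read 1241, 362.5 and 233 in DKK against 1205, 399.9 and 312 in DKK + dox. Both conditions started high and were lower at each later time, and the pair of arrays at 6 hours lay closest together. Its log2 differences were -0.04, 0.13 and 0.39, and the fitted difference of 0.34 (SE 0.12) did not pass (adjusted p = 0.118 from limma).

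Timp2, whose product both inhibits MMP2 and helps MMP14 to activate it, read 576, 228 and 258 in DKK on its brightest probe set, and 547, 402 and 453 in DKK + dox. At 6 hours the 2 conditions were near each other and at their highest. From 12 hours on both were lower, DKK by more than DKK + dox. The log2 differences were -0.07, 0.76 and 0.77, and Timp2 rose with a fitted difference of 0.86 (SE 0.19, adjusted p = 0.0254 from limma). In these data "rose" therefore describes a gene whose DKK + dox level was below its 6 hour level at both later times and above DKK at both.

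The 6 probe sets of Timp2 did not give the same result. Beside the brightest, 1454677_at rose: it read 512, 141 and 131 in DKK against 535, 265 and 394 in DKK + dox, with a fitted difference of 1.43 (adjusted p = 0.0026 from limma). The remaining 4 did not pass, with differences at 24 hours of 0.56 for 1433662_s_at, 0.11 for 1420924_at, 0.11 for 1450040_at and -0.05 for 1437081_at. The last of these also ran against the others over time, at 38.3, 66.3 and 59.98 in DKK, so it was the only Timp2 probe set that was higher at 12 than at 6 hours there. With the mean of all probe sets taken for each gene, the fitted difference of Timp2 was 0.45 and did not pass (adjusted p = 0.108 from limma). Without the 24 hour pair it was 1.16, extrapolated from 6 and 12 hours, and did not pass either (adjusted p = 0.148 from limma).

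Timp3, the gene of the inhibitor that stays bound to the matrix, read 202, 137 and 150.4 in DKK against 181, 116 and 171 in DKK + dox. DKK + dox was slightly lower at 6 and 12 hours and slightly higher at 24 hours. Its fitted difference was 0.02 (SE 0.19, adjusted p = 0.966 from limma). None of its 4 probe sets passed, and at 24 hours they lay between -0.46 and 0.38. On all 4 the differences at 6 and 12 hours were below 0.

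**Figure D3:**
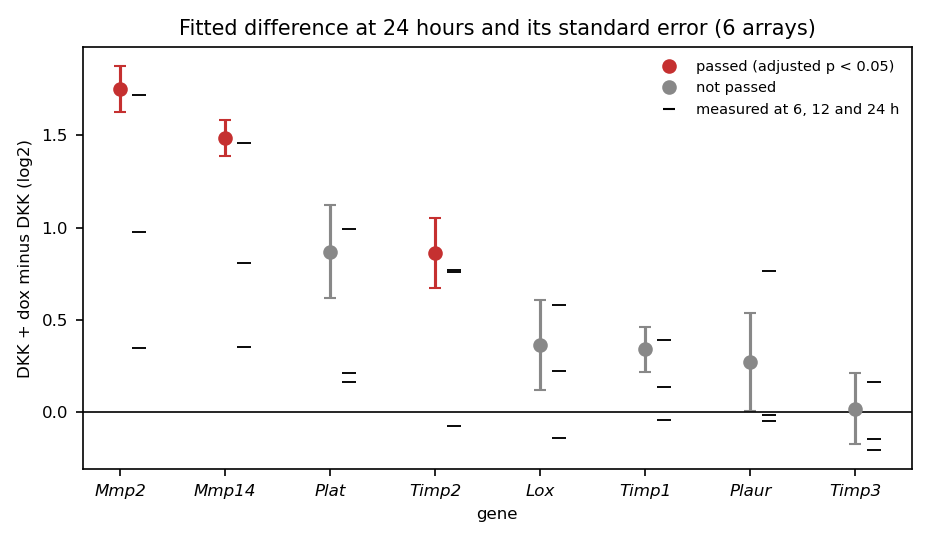
Fitted difference at 24 hours (points) with its standard error (bars) for the 8 members tested over 6 arrays, and the measured differences at 6, 12 and 24 hours (dashes), all as DKK + dox minus DKK in log2(intensity + 20.6). Mmp2, Mmp14 and Timp2 are in red as they passed the test; Plat has a fitted difference close to that of Timp2 and did not pass.

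Lox, which encodes the enzyme that starts collagen and elastin cross-linking, read 128, 68.1 and 101 in DKK against 114, 112 and 122 in DKK + dox. The DKK + dox arrays were nearly level, and the 12 hour DKK array was the lowest of the 6. The log2 differences of -0.14, 0.58 and 0.22 gave a fitted difference of 0.36 (SE 0.24) that did not pass (adjusted p = 0.379 from limma). Its other 2 probe sets were under the low-signal limit on all 6 arrays.

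Plat, the tissue plasminogen activator gene, was dim. It read 38.1, 30.8 and 33.0 in DKK against 45.1, 38.9 and 86.1 in DKK + dox. The 24 hour DKK + dox array stood above the other 5, and 2 of the DKK arrays were under the low-signal limit. The differences were 0.16, 0.21 and 0.99, and the intensity ratio at 24 hours was 2.61. The fitted difference of 0.87 (SE 0.25) missed the threshold (adjusted p = 0.0598 from limma), and it passed when the arrays were centred on the median (adjusted p = 0.0433 from limma) or quantile normalized (adjusted p = 0.0488 from limma). A second Plat probe set had a difference of 0.03 at 24 hours, with 34.3 in DKK against 35.6 in DKK + dox.

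Plau, the urokinase gene, read 14.8, 15.1 and 21.9 in DKK against 12.3, 13.3 and 20.2 in DKK + dox on its brighter probe set. All of these are under the low-signal limit, so no difference was read from them. Its receptor gene Plaur was above the limit on all arrays, at 407, 167 and 225 in DKK against 393, 298 and 222 in DKK + dox. The conditions lay close together at 6 and at 24 hours and apart at 12 hours, with differences of -0.05, 0.77 and -0.02. Plaur did not pass (fitted difference 0.27, SE 0.27, adjusted p = 0.566 from limma). It did not pass without the 12 hour pair either, with a fitted difference of -0.027 (adjusted p = 0.940 from limma).

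In the DKK cultures themselves 2 of the 8 members tested were higher at 24 than at 6 hours and 6 were lower, a comparison of single arrays with no test. Mmp2 was 0.57 and Mmp14 0.19 higher, although the dimmest Mmp14 probe set was at -0.52. Timp1 was lower by a log2 difference of -2.31 and Timp2 by -1.10. These 2 of 8 members were at least 2-fold lower, beside 4.26% of all genes. Plaur was at -1.19 at 12 hours against 6 hours, and at -0.80 at 24 hours against 6 hours. Timp3 was at -0.38, Lox at -0.29 and Plat at -0.13 over the latter span.

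In DKK + dox over the same span, Mmp2 was 1.94 and Mmp14 1.30 higher, Timp1 was at -1.88 and Timp2 at -0.26. Timp1 was the 1 member of 8 at least 2-fold lower there, beside 3.72% of all genes. For Timp1 and Mmp2 the larger part of the change fell between 6 and 12 hours, at -1.54 and 1.18, with -0.34 and 0.76 after that. For Plat it fell after 12 hours, at 0.84 against -0.14 before.

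Markers of other cell types moved over the same hours. The 6 hour arrays had the highest medians, 63.68 in DKK and 59.08 in DKK + dox, against 53.55 to 55.6 later. The summed intensities below were not corrected for this. The summed intensity of the 12 feeder fibroblast markers listed, 8 of them tested, was 2242 in DKK against 1794 in DKK + dox at 6 hours. It was between 1113 and 1497 on the 4 later arrays. S100a4 made up more than any other marker, at 1412 and 1135 at 6 hours. Postn, Lum, Fap and Prrx1 were under the low-signal limit on all arrays. Col1a1, Col1a2, Col6a3, Thy1, Dcn, Twist2 and S100a4 were above it on all arrays, and Pdgfrb on all but the 12 hour DKK array. Of the 8 tested, 1 rose, Pdgfrb, and 0 fell, beside 8.32% and 6.38% of all genes tested. Visceral endoderm markers summed to 4102 and 3798 at 6 hours and to between 1843 and 2750 later. Apoe made up 2746 and 2579.6 of the sums at 6 hours, and it was the 1 of 8 tested that fell, with 0 that rose. Macrophage and blood markers summed to 573 and 549 at 6 hours and to between 345 and 405 later, and trophoblast markers to 284 and 278 at 6 hours and to between 161 and 236 later. None of the 5 and 4 tested of these 2 lists passed, and 0 were under an unadjusted p of 0.05 from limma.

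Other lists moved with dox, where 8.32% of all genes tested rose and 6.38% fell. Of 14 parietal endoderm markers 7 rose, Sox7 and Sox17 (on 1 of its 2 probe sets) among them, and 2 fell, Krt19 (-1.10) and Fst (-0.90). The endoderm regulator genes Gata4 (0.37) and Gata6 (0.05) did not pass. The list had sums of 5655, 4592 and 4033 in DKK against 5481, 5128 and 7383 in DKK + dox. Of 5 endothelial markers tested, of 8 listed, 3 rose (Kdr, Cdh5 and Tek). The sums of all 8 listed were 327, 273 and 264 in DKK against 322, 559 and 1313 in DKK + dox. Kdr made up more than any other marker in DKK + dox at 12 and 24 hours, at 371 and 771. Pecam1, Tie1 and Emcn were under the limit on all arrays. Cdh5, and Erg, which did not pass, exceeded it only on the 24 hour DKK + dox array and were tested only through that array. The 10 ES cell and epiblast markers held 0 that rose and 3 that fell. These were Fgf5 (-2.63), Utf1 (-0.32, on 1 of its 3 probe sets) and Sox2 (-0.32). Whether cells of these types took part in the members' values was not tested, and in RNA from whole cultures more cells of a type and more RNA per cell cannot be told apart.

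Related genes were read the same way, as lists chosen around the members with earlier results of these arrays known, described by counts and medians beside those of all genes. Of all 14755 genes tested, 8.32% rose and 6.38% fell, the shares to set beside the counts of each list. None of the 9 other matrix metalloproteinases tested passed in either direction (0 also at an unadjusted p under 0.05 from limma), and 7 more of the 16 measured were under the limit on all arrays. Mmp9, the gene of the other gelatinase, had the largest difference at 24 hours (0.49), with 54.4 in DKK against 84.6 in DKK + dox. The median of the 9 was 0.28, against 0.58 for the members and 0.02 for all genes. Of the ADAM and ADAMTS proteases, which shed membrane proteins and cut proteoglycans, 5 of 18 tested rose and 0 fell. They were Adam10 (fitted difference 1.09), Adam19 (1.04), Adamts9 (1.03), Adamts1 (0.85) and Adam9 (0.77), and 2 of 4 probe sets of Adam10, 1 of 2 of Adam19 and 2 of 3 of Adamts9 did not pass.

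The other protease inhibitors went both ways, with 5 that rose and 3 that fell of 10 tested, at a median of 0.46 at 24 hours. The proteinase trap gene A2m rose by a fitted 3.17, from 36.7, 29.3 and 17.7 in DKK to 52.5, 114 and 371 in DKK + dox. Its DKK values were all under the low-signal limit, so it was tested only through the DKK + dox arrays. Serpinf1 rose by 2.24, Serping1 by 1.21, Cst3 by 0.71 and Reck, a membrane-anchored inhibitor of metalloproteinases, by 1.08. The 3 that fell were Spint1 (-1.98) and Spint2 (-1.84), Kunitz inhibitors of membrane serine proteases in epithelia, and Serpini1 (-1.28), a serpin that inhibits PLAT. Serpini1 read 168, 224 and 194 in DKK against 118, 101 and 82.4 in DKK + dox, and both of its probe sets fell. Timp4, the remaining TIMP, did not pass (0.16).

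Among plasminogen activation genes and receptors, 3 of 11 rose and 1 fell, at a median of 0.46, beside 8.32% and 6.38% of all genes tested. Anxa2, which binds plasminogen and PLAT at the cell surface, rose by 2.84, on 2 of its 3 probe sets tested. The remaining one did not pass and had a fitted difference of -0.52. The thrombin receptor gene F2r rose by 1.59 and the clearance receptor gene Lrp1 by 0.96 (on 1 of its 2 probe sets), while F3, the tissue factor gene, fell by 1.26. Plg, the plasminogen gene, had a fitted difference of 0.09 and did not pass. Of 10 partners and regulators of MMP2 and MMP14, 1 rose, the integrin gene Itgav (1.09, on 1 of its 4 probe sets), and 1 fell, the proteoglycan gene Spock2 (-0.77, on 1 of its 2 probe sets), with a median of 0.02. Furin, whose product activates MMP14, did not pass (-0.21).

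Of the 19 other collagen cross-linking and maturation genes tested, 7 rose and 0 fell, with a median of 0.45 at 24 hours. The collagen chaperone gene Serpinh1 rose by 2.06, the lysyl hydroxylase gene Plod1 by 1.29, Pcolce, an enhancer of procollagen processing, by 1.22, and the prolyl hydroxylase gene P4ha1 by 0.98. Both probe sets of Serpinh1, Pcolce and P4ha1 rose and 1 of 2 of Plod1. Loxl1 and Loxl3, the relatives of Lox above the low-signal limit, did not pass (-0.13 and 0.09), and Loxl4 was under the limit on all arrays. Of the 14 matrix substrates tested 8 rose and 0 fell, with a median of 0.92. Col5a2 rose by 2.43, Col3a1 by 2.42, the nidogen gene Nid1 by 2.12 and Col4a2 by 1.40. Col5a2 was under the low-signal limit on every DKK array, at 30.8, 31.8 and 35.0, and was tested only through the DKK + dox arrays. A second probe set of Nid1 had a fitted difference of 0.61 and did not pass. The collagen I genes Col1a1 and Col1a2 did not pass (0.13 and 0.19). Of these 14 genes, Col4a1, Col4a2, Lama1, Lamb1 and Sparc are also on the parietal endoderm list, and Col1a1 and Col1a2 on the feeder fibroblast list.

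**Figure D4:**
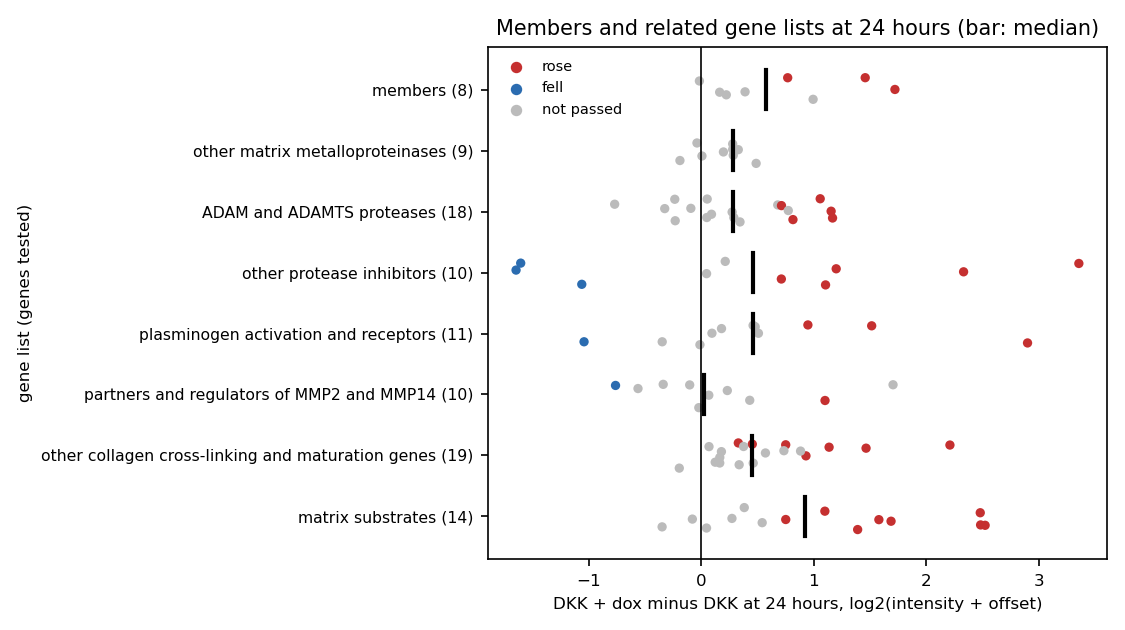
Difference at 24 hours (DKK + dox minus DKK in log2(intensity + 20.6), 1 array against 1) for each gene tested of the members and of 7 related lists, with the list median as a bar. Red genes rose and blue genes fell in the limma fit over 6 arrays. The members' median is 0.58, that of the other metalloproteinases 0.28 and that of the matrix substrates 0.92, and the inhibitors and plasminogen genes hold points on both sides.

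The course of Mmp2 over the 6 arrays was shared by many genes. Its log2 values had the highest Pearson correlation with those of Cald1 (r = 0.999), Nuak1 (0.999), Rps6ka5 (0.998), Zfhx4 (0.998) and Abcd2 (0.997) among 14754 other genes, and 485 genes had r over 0.95. All 6 points come from the same arrays and from 1 series of cultures, so these values describe these arrays. Abcd2 exceeded the low-signal limit only on the 24 hour DKK + dox array, so its correlation rests mostly on values under that limit. Cald1, the gene of the actin-binding protein caldesmon, read 644, 1032 and 1089 in DKK against 834, 2262 and 4057 in DKK + dox. Of the members, Mmp14 had r = 0.985 with Mmp2 and Plat 0.76, while Lox had 0.19, Timp2 0.002, Timp3 -0.37, Plaur -0.37 and Timp1 -0.57.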

How the data were processed

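Gene expression was measured on 6 Affymetrix mouse expression arrays, 1 for each condition at each time. The authors used dChip for normalization and modeling, in a version and form not given in the sources used here. Deposited values are intensities on a linear scale, the lowest being 1. The platform annotation gave the gene symbols: 34945 carried 1 symbol, 932 several and 9160 none, and only the first kind was used. Of these, 34741 matched the RefSeq gene table by Entrez ID, and 0 symbols changed.

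Values were taken as log2(intensity + 20.6), the offset being the 25th percentile of all values and the low-signal limit of 37.2 the 40th. Of 18193 genes, each represented by the probe set of highest mean intensity, 14755 exceeded that limit on at least 1 array. limma 3.58.1 in R 4.3.3 fitted them with the time point as a block and 1 coefficient for dox times hours (lmFit, then eBayes with a trend in intensity and 5.5 prior degrees of freedom), with Benjamini-Hochberg adjustment at 0.05, two-sided. Correlations and promoter counts are descriptions. Python 3.11.15 with matplotlib 3.10.9 drew the figures.

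The members, lists, tests and alternatives (offset, filter, normalization, probe set, model, left-out pair and fold threshold) were chosen with earlier results of these data known. All members were named, and of each list up to 4 genes that rose and 4 that fell by fitted size, or else the gene with the largest difference at 24 hours. Adam9, Cst3, Timp4, Plg, Furin, Loxl1, Loxl3, Loxl4, Col1a1, Col1a2 and the markers were named outside this rule, after their values were seen. The precision is limited by the number of arrays, and by the signal: 37.5 to 41.3% of probe sets were at or under the limit on each array. Whether the arrays of a time were processed together is not given in the sources used here.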

Additional observations from a re-analysis of the deposited data

Results flagged for a closer look

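For 5 members the difference between DKK + dox and DKK had opposite signs at 2 times, with 1 array per condition at each time. The gap between these differences was 0.43 for Timp1 (24 minus 6 hours), 0.84 for Timp2 (24 minus 6 hours), 0.37 for Timp3 (24 minus 12 hours), 0.72 for Lox (12 minus 6 hours) and 0.81 for Plaur (12 minus 6 hours), all on the log2 scale. Whether the differences at these times differ was not tested, since each rests on a single pair of arrays. Of these genes, Timp2 passed the trend test and the other 4 did not. With the arrays centred on the median, the 6 hour differences of Timp1, Timp2 and Plaur were 0.04, 0.01 and 0.03 in place of -0.04, -0.07 and -0.05, so that their sign there depends on the scaling.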

How the results depend on the processing

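Mmp2 and Mmp14 passed the test in 15 of 16 fits. In those 15 the fitted differences ran from 1.70 to 1.84 for Mmp2 and from 1.41 to 1.57 for Mmp14. Both upper ends came from the fit without the 24 hour pair. The exception held the difference constant, so that its value is a mean over the 3 times (1.02 and 0.87, adjusted p = 0.0941 and 0.0880 from limma). In that model 0 genes rose, 0 fell and 0 members rose. There 2927 genes had an unadjusted p under 0.05, and the lowest adjusted p was 0.0516. Timp2 passed in 11 of 16 and kept a positive difference in all of them. Its 5 misses were the mean of all probe sets (0.45, adjusted p = 0.108 from limma), the constant difference (0.49, 0.209), linear time in place of the time block (0.86, 0.349), the fit without the intensity trend (0.86, 0.103) and the one without the 24 hour pair (1.16, 0.148). Plat passed in 2 of 14, and Timp1, Timp3, Lox and Plaur in none. Timp3 turned to -0.22 with the mean of all probe sets, to -0.062 with a constant difference and to -0.44 without the 24 hour pair, none of them past the threshold. Without 1 pair at a time, Timp3 lay between -0.44 and 0.12, and Plaur between -0.027 without the 12 hour pair and 1.19 without the 24 hour pair. Every value without the 24 hour pair is extrapolated to 24 hours from 6 and 12 hours. The measured Plaur difference at 24 hours was -0.02.

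Against 1227 genes that rose and 941 that fell, linear time gave 121 and 80, and the fit without the intensity trend 209 and 76. Leaving out 1 pair of arrays gave 229 to 952 that rose and 499 to 754 that fell, the lowest of both without the 24 hour pair (without the 6 hour pair 793 and 533). The causes were not tested. At a 1.5-fold threshold 4 members were higher at 12 hours and 4 at 24 hours, and at a 3-fold threshold 1 was at 24 hours. The shares of all genes at these 2 thresholds were not counted, so whether the members stand out there cannot be read. The labels number no replicates. The 2 arrays of a time were paired through the time block in every fit but the one with linear time. Plau and Plat, with arrays under the low-signal limit, are limited by signal.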
